A study of Rattus norvegicus with 8 samples.

Results

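The immediate early transcription factor mRNAs Fos, Fosb, Jun, Junb, Jund, Egr1, Atf3, Ier2, Nr4a1 and Klf2 were examined in RNA of rat plasma exosomes. These 10 mRNAs were chosen by name and not by a measured value, but with earlier results of these data known. The table of 29541 genes held a row for 9 of the 10. No row was named Junb, which is not described further. All 9 were above 0 in at least 1 library, but only Fosb and Atf3 had a mean of at least 0.1 TPM (reads divided by gene length and scaled to the same total in every library).

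The study asked which RNAs differ in circulating exosomes after a month of moderate treadmill running. Male Sprague Dawley rats, 9 to 10 weeks old on arrival, gave 4 sedentary and 4 exercised plasma libraries, with the letters a to d in each group. The rats of the exosome cohort were not injected with alpha-synuclein fibrils, and the labels give no genotype beyond the strain. Exercised rats were warmed up at 10 m/min for 5 min and then ran on a flat treadmill at 20 m/min for 30 min, on 5 days of each week for 1 month, and sedentary rats stayed in the same room. Blood was drawn by cardiac puncture within 30 min of the last run, and sedentary and exercised plasma went through the same vesicle precipitation. The numbers of rats per sequenced group given in the methods and in the discussion differ, and the labels list 4 libraries in each. The sources used here do not say whether each library came from 1 rat, so every p measures only the spread between libraries, which may be technical.

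Immediate early genes are transcribed within minutes of a stimulus such as a growth factor, calcium entry, stress or mechanical load, without a need for new protein synthesis. Their promoters are bound before the stimulus by factors such as SRF and CREB, which kinases of the MAP kinase and calcium pathways switch on. The mRNAs are short lived. Running is known to raise several of them in muscle and in brain. Plasma vesicles carry RNA of many cell types, so that in bulk RNA fewer vesicles of one source and less of an mRNA per vesicle cannot be told apart.

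The libraries were shallow for mRNA. Each held 10020804 to 31357153 reads, of which 64776 to 139868 lay outside the 10 most abundant RNAs. Exercised a had the fewest reads by both measures, and 18.1% of genes were above 0 in it, the lowest share of the 8 libraries. Of 19590 protein-coding genes, 76.8% were above 0 somewhere and 9.36% in every library. Reads could be recovered because every TPM value was a whole multiple of that of 1 read. The counts given are the lowest that fit. The sources used here do not say if PCR duplicates were taken out, so intervals from reads cover counting error only. Plasma has no defining cell type, and markers of red cells, platelets and liver were all present. Marker lists for monocytes and lymphocytes summed to at most 0.640 TPM and 0.467 TPM in any library. The markers of vesicles (9 mRNAs, all above 0) summed to 0.465 to 0.943 TPM in sedentary and 0.610 to 7.55 TPM in exercised libraries. The upper value is that of exercised a, 5.52 TPM of it Hspa8, and exercised b to d summed to 0.610 to 0.952 TPM. As mRNAs, they do not show whether vesicles were present.

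Upstream sequence was matched for 5 of the 9 mRNAs (Fosb, Nr4a1, Jund, Egr1 and Ier2), from RefSeq on assembly GRCr8. The 250 bases before the start of 3 of them are shown because they hold the elements for which the class is known. The SRF site, or CArG box, has CC and GG around a stretch of A and T bases, and the CREB site, or CRE, reads TGACGTCA in full and TGACG as a half-site. No promoter was measured here, and a match is only a match of letters. Egr1 lies on the plus strand at chr18:26736828-26737077, Jund on the minus strand at chr16:18769772-18770021 and Ier2 on the plus strand at chr19:40399123-40399372. Capitals mark CArG boxes and CRE half-sites in Egr1, and the full CRE in Jund and Ier2.
Egr1: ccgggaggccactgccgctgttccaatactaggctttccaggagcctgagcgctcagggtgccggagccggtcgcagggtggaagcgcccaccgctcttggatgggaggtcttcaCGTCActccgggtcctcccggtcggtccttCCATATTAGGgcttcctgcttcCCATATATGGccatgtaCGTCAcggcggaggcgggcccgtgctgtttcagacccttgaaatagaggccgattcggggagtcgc
Jund: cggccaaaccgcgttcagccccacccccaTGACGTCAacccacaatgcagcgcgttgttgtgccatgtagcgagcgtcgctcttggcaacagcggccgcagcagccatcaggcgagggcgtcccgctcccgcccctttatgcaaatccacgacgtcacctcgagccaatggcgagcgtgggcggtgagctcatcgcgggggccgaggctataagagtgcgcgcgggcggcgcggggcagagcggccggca
Ier2: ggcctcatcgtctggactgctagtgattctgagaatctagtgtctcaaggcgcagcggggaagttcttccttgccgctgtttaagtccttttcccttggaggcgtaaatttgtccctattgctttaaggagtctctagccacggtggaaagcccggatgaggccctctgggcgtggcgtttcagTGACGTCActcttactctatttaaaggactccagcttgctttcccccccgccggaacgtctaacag

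Both strands were searched, and a half-site within a full CRE counts for both motifs. Egr1 was the only one of the 5 with a CArG box, and it had 2, which start 105 and 83 bases before the gene. A CArG box was found in 1.501% of 27457 promoters. Jund and Ier2 held a full CRE, which 1.70% of promoters did. The CRE half-site was found in Nr4a1, Jund, Egr1 and Ier2, against 19.0% of promoters. The EGR site GCGNGGGCG was found in Nr4a1 and Jund (4.53% of promoters), and TATAAA in Fosb (13.1%). The AP-1 site TGANTCA was found in 0 of the 5 (6.36% of promoters). Over all libraries Egr1 had 2 reads, Jund 16 and Ier2 19.

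The immediate early mRNAs were present at a few reads per library. Of 72 values (9 mRNAs in 8 libraries), 29 were at 0, 21 rested on 1 to 3 reads and 1 was above 8 reads. The 9 mRNAs had 176 reads in all, 74 in sedentary and 102 in exercised libraries. They were above 0 in 22 of 36 sedentary values and 21 of 36 exercised values. Klf2 was the only one with reads in every library, while Fos, Egr1 and Nr4a1 had reads in 2 libraries each.

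**Figure D1:**
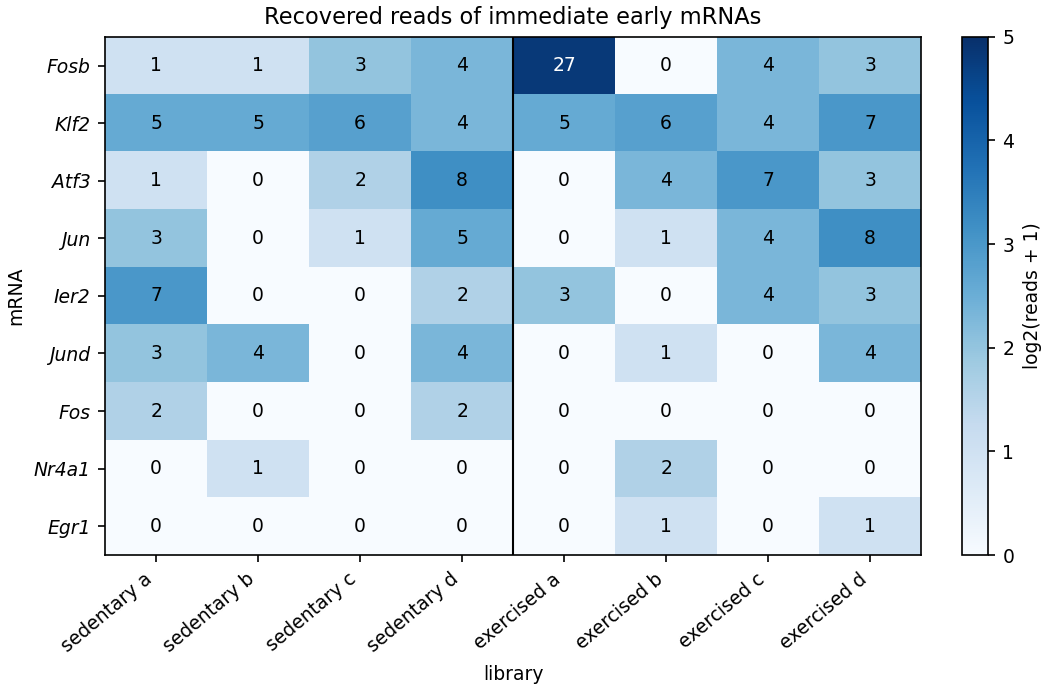
Reads of each immediate early mRNA (rows, most reads first) in each library (columns, sedentary left of the line), with the number printed in each cell and the colour on a log2(reads + 1) scale. The 27 Fosb reads of exercised a stand out, and no other cell is above 8.

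Among protein-coding genes above 0 in these libraries, 6 of the 9 lay above the median and 3 below it. The median gene had a mean of 0.0230 TPM over the 8 libraries. Fosb was at the 91.6 percentile of these 15051 genes, Atf3 at 86.2 and Jund at 81.1. Klf2 (69.6), Jun (65.9) and Ier2 (62.9) followed. Fos (40.7), Nr4a1 (26.5) and Egr1 (14.5) had the fewest reads and the lowest levels. The order from Fosb to Egr1 was not resolved between most neighbours, since the SD within a group was often as large as the mean. TPM divides by the gene length of the authors' annotation. The lengths implied by the values were 4512 bases for Jun, 5028 for Ier2 and 8498 for Klf2, longer than their whole RefSeq genes (3094, 1525 and 2633 bases), and a shorter length would give higher TPM for these 3.

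**Figure D2:**
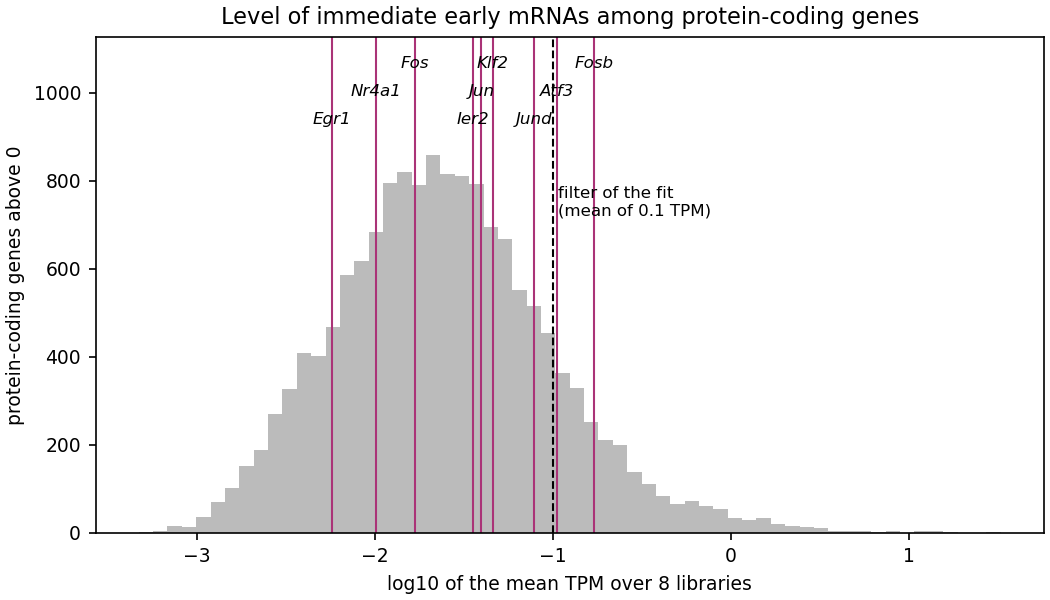
Histogram of the mean TPM over 8 libraries (log10 axis) of 15051 protein-coding genes above 0, with each immediate early mRNA as a vertical line and the 0.1 TPM filter of the fit as a dashed line. Fosb and Atf3 lie right of the filter, and Fos, Nr4a1 and Egr1 lie left of the median gene.

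No immediate early mRNA differed between exercised and sedentary libraries beyond the spread within the groups. By group mean, 7 of the 9 were higher in exercised libraries and 2 were lower. The share of all genes higher by group mean was not counted. Their median difference in TPM, given below for the tested genes, was also above 0. For all 9 the groups overlapped, and none had an exact permutation p under 0.05 (two-sided, 70 assignments). The smallest possible p was 0.029 for 6 of them. For Fos, Egr1 and Nr4a1, with reads in 2 libraries each, it was 0.429, and neither a p under 0.05 nor groups apart could occur. The exact permutation p ran from 0.057 for Klf2 to 1 for Nr4a1. Across the table, limma (log2(TPM + 0.1), Benjamini-Hochberg adjustment) called 0% of 3069 tested genes at an adjusted p under 0.05, with 0 genes called in either direction. By the unadjusted p, at the same threshold, it called 6.61% of genes, 125 higher and 78 lower. Limma's voom on the recovered reads called 2 genes higher and 6 lower, none of them an immediate early mRNA. The median difference of all tested genes was 0.28 on the log2 scale. It was -0.15 when libraries were scaled without the 10 most abundant RNAs, and the unadjusted counts then became 62 higher and 176 lower. With median-ratio scaling they were 82 higher and 116 lower. In 4.07% of the 3069 genes the groups did not overlap.

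**Figure D3:**
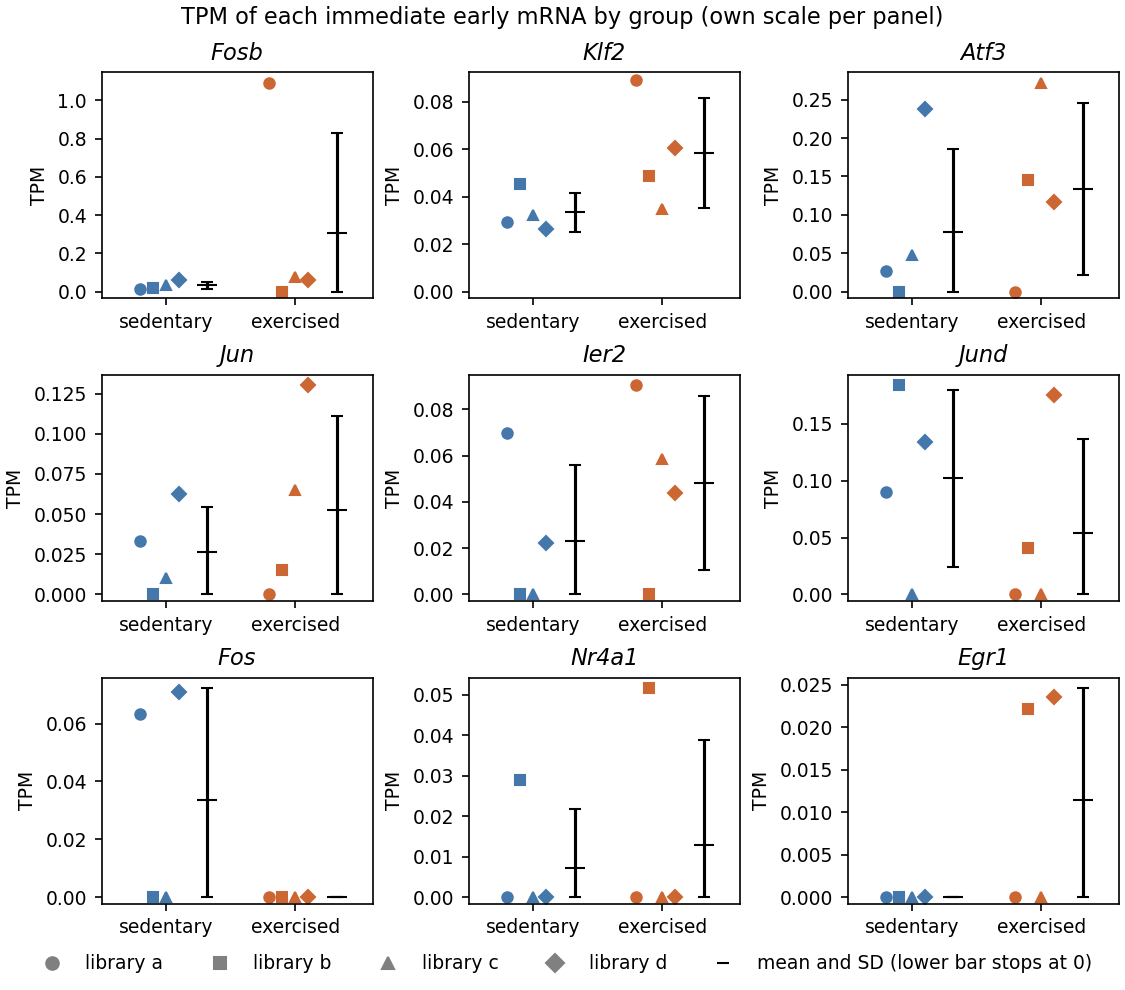
TPM of each immediate early mRNA in sedentary (blue) and exercised (orange) libraries, 1 point per library with its letter as the marker, and the mean with SD of 4 libraries in black. Each panel has its own linear axis from 0, and the groups overlap in all 9 panels.

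Fosb, Fos, Jun and Jund encode subunits of AP-1, a dimer that binds DNA through a basic region and a leucine zipper. Fos proteins must pair with a Jun protein, while Jun proteins can also pair with each other. Fosb had the most reads of the 9. Its level was 0.0134, 0.0206, 0.0365 and 0.0602 TPM in sedentary a to d and 1.09, 0, 0.0787 and 0.0588 TPM in exercised a to d. Exercised a was far above every other library, and the other 3 exercised libraries lay from below to just above the sedentary range. The mean was 0.0327 ± 0.0207 TPM (SD, n = 4) in sedentary and 0.308 ± 0.525 TPM (SD, n = 4) in exercised libraries, a ratio of 9.41 (exact permutation p = 0.314). Without exercised a the ratio was 1.40, and it was 5.97 when libraries were scaled without the 10 most abundant RNAs. In the limma fit the log2 difference of Fosb was 0.88 (SE 0.742, adjusted p = 0.826), on the log2(TPM + 0.1) scale, which understates changes of low genes.

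The Fosb value of exercised a rested on 27 reads, of 43 in all libraries. The pooled read rate outside the 10 most abundant RNAs was 4.01 times as high in exercised libraries (exact 95% interval 1.88 to 9.51, counting error only), and this rate includes those 27 reads. The nearest genes on either side of Fosb in RefSeq had few reads in exercised a: Gpr4 and Ppp1r13l had 2 each, Vasp 1, and Ppm1n, Rtn2, Ercc1, Polr1g and Ercc2 none. A RefSeq long noncoding RNA, LOC103691049, overlaps Fosb and has no row by that name in the table. Genes with at least 27 reads in 1 library and at most 4 in each other library numbered 32 in exercised a, 46 in exercised b and 0 to 8 in each other library. Their part in the Fosb value was not tested.

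Fos, which pairs with Jun proteins in AP-1, was read only in sedentary libraries. Its level was 0.0632 TPM in sedentary a and 0.0708 TPM in sedentary d, 2 reads in each, and 0 in the other 6. A count of 0 allows up to 0.130 to 0.286 TPM in the exercised libraries, the level of 3 reads, which is above every value seen. The read rate in exercised libraries was 0 to 1.61 times that in sedentary libraries (exact 95% interval), and the exact permutation p was 0.429. With reads in 2 libraries the permutation test could not reach a p under 0.05. By counting error alone, the interval leaves out a rise above 1.61 times and allows no change or a fall. It does not cover the spread between libraries.

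Jun, the main partner of Fos proteins, was at 0.0334, 0, 0.0101 and 0.0623 TPM in sedentary a to d and at 0, 0.0152, 0.0652 and 0.130 TPM in exercised a to d. Library d was highest in both groups, and each group held a library at 0. The means were 0.0265 ± 0.0277 and 0.0527 ± 0.0587 TPM (SD, n = 4 each), a ratio of 1.99 (exact permutation p = 0.486). Without exercised d the ratio was 1.01, and without sedentary d it was 3.63. By reads, 9 in sedentary and 13 in exercised libraries, the rate ratio was 1.53 (95% interval 0.607 to 4.07).

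Jund, a Jun protein that is present in most cells without a stimulus, had the opposite direction. It was at 0.0897, 0.184, 0 and 0.134 TPM in sedentary a to d and at 0, 0.0410, 0 and 0.175 TPM in exercised a to d. Exercised d lay within the sedentary range, and the libraries at 0 were sedentary c and exercised a and c. The means were 0.102 ± 0.0780 and 0.0540 ± 0.0829 TPM (SD, n = 4 each), a ratio of 0.530 (exact permutation p = 0.4). The rate ratio was 0.483 (95% interval 0.132 to 1.51), from 11 and 5 reads, and without exercised d the TPM ratio was 0.134.

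Atf3 encodes a stress-induced basic leucine zipper factor of the ATF and CREB family that can pair with Jun proteins and represses many of its targets. It was at 0.0265, 0, 0.0481 and 0.238 TPM in sedentary a to d and at 0, 0.145, 0.272 and 0.116 TPM in exercised a to d. The highest sedentary library was above 3 of the 4 exercised libraries. The means were 0.0781 ± 0.108 and 0.133 ± 0.112 TPM (SD, n = 4 each), a ratio of 1.71 (exact permutation p = 0.543). Without sedentary d the ratio was 5.36, and without exercised c it was 1.12. In the limma fit the log2 difference was 0.41 (SE 0.580, adjusted p = 0.874). Atf3 had 11 reads in sedentary and 14 in exercised libraries, a rate ratio of 1.35 (95% interval 0.570 to 3.29).

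Klf2 encodes a zinc finger factor known for its induction by laminar blood flow in endothelial cells and for its part in T cell quiescence. Its reads were the most even of the 9, at 4 to 7 in every library. The level was 0.0295, 0.0453, 0.0322 and 0.0265 TPM in sedentary a to d and 0.0891, 0.0486, 0.0346 and 0.0604 TPM in exercised a to d. Exercised a, b and d were above every sedentary library, and exercised c was within their range. The means were 0.0334 ± 0.00830 and 0.0582 ± 0.0231 TPM (SD, n = 4 each), a ratio of 1.74 (exact permutation p = 0.057), higher in 3 of 4 exercised libraries than in any sedentary one. The ratio fell with the scaling. It was 1.34 with median-ratio scaling (exact permutation p = 0.314) and 1.13 when libraries were scaled without the 10 most abundant RNAs (exact permutation p = 0.686). By reads, 20 in sedentary and 22 in exercised libraries, the rate ratio was 1.17 (95% interval 0.608 to 2.26).

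Egr1 encodes a zinc finger factor that is known to be induced through SRF, and the CArG boxes of its upstream sequence are shown above. It had 1 read each in exercised b (0.0221 TPM) and exercised d (0.0236 TPM) and none in the other 6 libraries. A count of 0 allows up to 0.0439 to 0.0742 TPM in the sedentary libraries, above both values, so that no difference was detectable (exact permutation p = 0.429). The lower bound of the read rate ratio was 0.199 (exact 95% interval). Nr4a1 encodes an orphan nuclear receptor that is induced in active muscle and in lymphocytes after antigen receptor signalling. It had 1 read in sedentary b (0.0289 TPM) and 2 in exercised b (0.0516 TPM), and was at 0 in the other 6. The ratio of means was 1.79 (exact permutation p = 1), or 1.10 as a mean over libraries of the read rate outside the 10 most abundant RNAs, and the pooled rate ratio was 2.12 with a 95% interval of 0.111 to 125.

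Ier2 encodes a nuclear protein of the immediate early class whose function is less well known than those of the others. It was at 0.0699, 0, 0 and 0.0224 TPM in sedentary a to d and at 0.0904, 0, 0.0585 and 0.0438 TPM in exercised a to d. Exercised a was highest and sedentary a came next. The means were 0.0231 ± 0.0329 and 0.0482 ± 0.0375 TPM (SD, n = 4 each), a ratio of 2.09 (exact permutation p = 0.4). Without sedentary a the ratio was 6.46, and scaled without the 10 most abundant RNAs it was 1.32 (exact permutation p = 0.8286). With 9 and 10 reads, the rate ratio was 1.18 (95% interval 0.431 to 3.28).

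Summed over the 9 mRNAs, the level was 0.326, 0.279, 0.127 and 0.614 TPM in sedentary a to d and 1.27, 0.324, 0.509 and 0.608 TPM in exercised a to d. Exercised a alone was above the sedentary range, and 1.09 TPM of its sum was Fosb. The mean sum was 0.336 ± 0.204 TPM in sedentary and 0.678 ± 0.413 TPM in exercised libraries (SD, n = 4 each), a ratio of 2.02. The pooled read rate was 1.46 times as high in exercised libraries (95% interval 1.07 to 2.003, counting error only, which leaves out the spread between libraries). With Fosb left out, a choice made after seeing the data, the means were 0.304 ± 0.192 and 0.371 ± 0.157 TPM, a ratio of 1.22. Without Fosb the reads were 65 in sedentary and 68 in exercised libraries, and the rate ratio was 1.11 (95% interval 0.779 to 1.59). The number of the 9 mRNAs above 0 was 7, 4, 4 and 7 in sedentary a to d and 3, 6, 5 and 7 in exercised a to d. The 3 of exercised a go with the smallest share of protein-coding genes above 0 (23.9%). That share was 33.9% to 48.8% in the other libraries.

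Other immediate early genes were taken from a list of 56, of which 52 had a row, 48 were above 0 and 6 passed the filter of 0.1 TPM. None of the 6 had an adjusted p under 0.05, against 0% of all tested genes. At an unadjusted p under 0.05, 2 of 6 were higher and none lower, against 6.61% of all tested genes. This count was 0 of 6 when scaled without the 10 most abundant RNAs or with a pseudocount of 1 TPM, 0 of 8 without sedentary d, and 1 of 6 with median-ratio scaling. It was also 1 of 6 with voom or a replicate block. The count was 2 of 7 without sedentary c, 2 of 6 without exercised a or exercised d, and 1 with any other library left out. With no filter it was 5 of 48, against 259 of 17901 genes higher. Their median log2 difference was 0.75, beside 0.28 for all tested genes. Summed over the list, the level was 1.84 to 2.70 TPM in sedentary and 2.89 to 5.25 TPM in exercised libraries (2.14 ± 0.383 and 3.96 ± 0.986 TPM, SD, n = 4 each). These ranges did not touch in TPM as deposited, and the sum was not examined under the other scalings. The 10 most abundant RNAs took 99.24% of TPM in sedentary c and 98.26% in exercised a, which lowers or raises the TPM of all other genes.

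The 2 with the unadjusted p were Nfkbia and Cebpd. Nfkbia encodes the inhibitor that holds NF-kappaB in the cytoplasm and is itself an NF-kappaB target. It was at 0.0248, 0.0380, 0.202 and 0 TPM in sedentary a to d and at 0.224, 1.09, 0.290 and 0.181 TPM in exercised a to d. Sedentary c was above exercised d, and otherwise the groups were apart. The log2 difference of Nfkbia was 1.59 (SE 0.573, unadjusted p = 0.0204, adjusted p = 0.611 by limma), from 11 and 48 reads, and when scaled without the 10 most abundant RNAs it was 1.19 (unadjusted p = 0.0793). Cebpd encodes a factor of the acute phase response. It was at 0.0397, 0.0609, 0.108 and 0.0445 TPM in sedentary a to d and at 0.120, 0.272, 0.407 and 0.174 TPM in exercised a to d. The groups did not overlap, as in 4.07% of tested genes. The log2 difference of Cebpd was 1.02 (SE 0.413, unadjusted p = 0.0339, adjusted p = 0.689 by limma), from 6 and 16 reads, and when scaled without the 10 most abundant RNAs it was 0.66 (unadjusted p = 0.158).

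The groups did not overlap either for Tnfaip3, Trib1 and Id2, which were under the filter and were picked out after their values were seen. Tnfaip3 encodes an inhibitor of NF-kappaB signalling and had 2 sedentary and 19 exercised reads. Trib1 encodes a pseudokinase that brings C/EBP proteins to degradation, with 3 and 10 reads, and Id2, an inhibitor of helix-loop-helix factors, had 4 and 15. In all 3 the exercised libraries were higher. Among the 14832 genes under the filter, 1.30% had groups that did not overlap. That share includes genes with reads in fewer than 4 libraries, whose groups cannot be apart. Tnfaip3, Trib1 and Id2 had reads in 5, 7 and 7 libraries. Over the whole list, 4 of the 48 genes above 0 had groups that did not overlap. Of the most abundant genes of the list, Cebpb was at 0.542 ± 0.376 and 0.739 ± 0.571 TPM, and Irf1 was at 0.215 ± 0.149 and 0.323 ± 0.0903 TPM (sedentary and exercised, SD, n = 4 each). Zfp36l1, which encodes an mRNA decay factor, was at 0.116 ± 0.0995 and 0.256 ± 0.495 TPM, with 0.999 TPM in exercised a. These 3 groups of values overlapped.

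Regulators that act upstream of immediate early genes were also present. Of 28 kinases, transcription factors and coactivators listed, 27 were above 0 and 3 passed the filter. Of these 3, 0 had an unadjusted p under 0.05 in either direction. Srf, which binds the CArG box, was at 0.0554 ± 0.0158 TPM in sedentary and 0.291 ± 0.374 TPM in exercised libraries (SD, n = 4 each, exact permutation p = 0.057), with 0.849 TPM in exercised a and 0.0715 to 0.161 TPM in the other 3. Camk4, a kinase that activates CREB, was at 0.224 ± 0.1499 and 0.164 ± 0.163 TPM. Map2k1, the MAP kinase kinase above ERK, was at 0.137 ± 0.0484 and 0.106 ± 0.107 TPM. Mapk14, the stress kinase p38 alpha, was at 0.0589 ± 0.0537 and 0.0805 ± 0.120 TPM.

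Partners with a basic leucine zipper were likewise above 0 (18 of 18, 4 tested), and 0 of the 4 had an unadjusted p under 0.05 in either direction. Jdp2, a repressor that pairs with Jun proteins, was at 0.177 ± 0.177 TPM in sedentary and 1.10 ± 1.001 TPM in exercised libraries (SD, n = 4 each). It was at 1.98 and 1.96 TPM in exercised a and b but at 0.349 and 0.131 TPM in exercised c and d, within the sedentary range of 0.0298 to 0.434 TPM. Its log2 difference was 1.75 (SE 0.804, unadjusted p = 0.0549, adjusted p = 0.754 by limma). Nfe2l1, a regulator of proteasome genes, was at 0.145 ± 0.132 and 0.243 ± 0.292 TPM. Nfe2, a factor of red cells and megakaryocytes, was at 0.287 ± 0.542 and 0.0349 ± 0.0494 TPM, with 1.10 TPM in sedentary b. Mafg, its small partner, was at 0.130 ± 0.0582 and 0.0961 ± 0.0528 TPM.

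The other Klf genes are relatives of Klf2. All 13 listed were above 0, 3 were tested, and none had an unadjusted p under 0.05. Klf12 was at 0.126 ± 0.112 and 0.147 ± 0.149 TPM in sedentary and exercised libraries, and Klf7 at 0.0866 ± 0.0167 and 0.162 ± 0.136 TPM (SD, n = 4 each). Klf3 was at 0.00638 ± 0.00768 and 0.238 ± 0.429 TPM, of which exercised a had 0.880 TPM. Klf1, the erythroid member, was at 0.0680 ± 0.0613 and 0.110 ± 0.127 TPM. Klf16 had 6 reads in sedentary and none in exercised libraries, and it too was picked out after its values were seen.

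**Figure D4:**
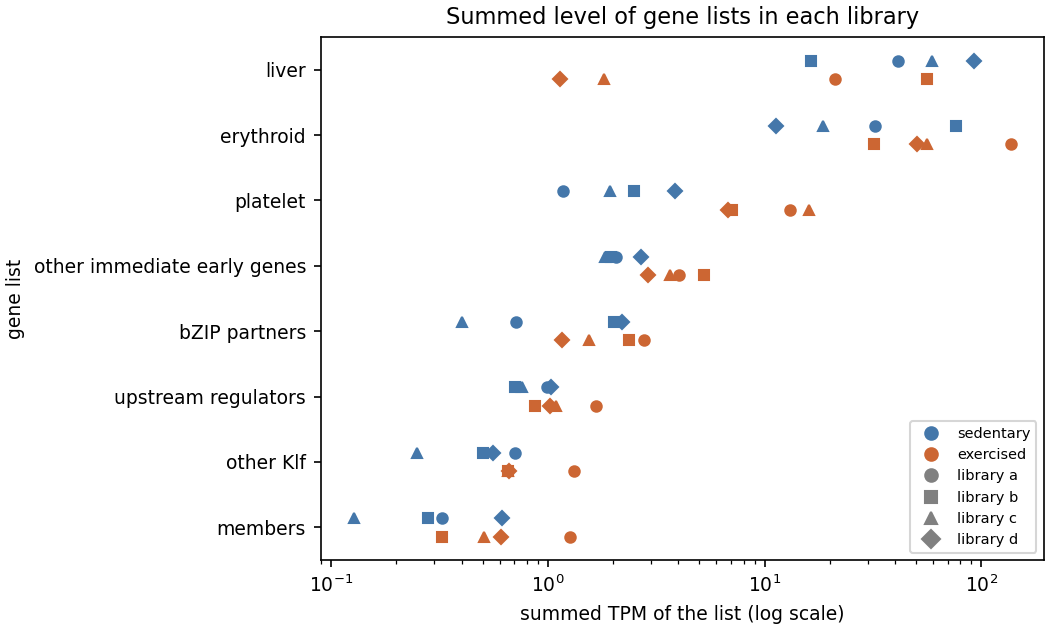
Summed TPM of each gene list (log axis) in the 4 sedentary (blue) and 4 exercised (orange) libraries, 1 point per library with its letter as the marker, and the 9 immediate early mRNAs shown as members. In TPM as deposited, only the other immediate early genes and the platelet markers have ranges that do not touch. Other scalings of these sums were not examined. The liver markers run lower in 2 exercised libraries.

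Of the marker lists for blood cells, muscle, vessels and liver, those for platelets and liver had genes with an unadjusted p under 0.05, and none had an adjusted call. Of 14 platelet markers, 12 were above 0, with Gp1bb and Selp at 0. They summed to 1.17 to 3.86 TPM in sedentary and 6.81 to 15.98 TPM in exercised libraries. At an unadjusted p under 0.05, 2 of 8 tested were higher, against 6.61% of all tested genes. These were Pf4 (log2 difference 2.18) and Tubb1 (1.61, unadjusted p = 0.0499 by limma). The count was 1 of 7 when scaled without the 10 most abundant RNAs or with median-ratio scaling, and 1 of 8 with a pseudocount of 1 TPM. Liver markers (15 of 15 in the table above 0) summed to 16.4 to 92.8 TPM in sedentary and 1.13 to 56.2 TPM in exercised libraries. Of 13 tested, 8 were lower at an unadjusted p under 0.05, against 6.61% of all tested genes. In the rest of these lists no tested gene had an unadjusted p under 0.05, and the groups overlapped. The numbers tested were 8 erythroid, 5 neutrophil, 3 skeletal muscle, 3 endothelial, 1 monocyte and 0 lymphocyte markers. For lymphocytes no call could thus occur. Of 14 erythroid markers listed, 11 had a row, all above 0, and they summed to 11.3 to 76.8 and 32.1 to 137 TPM. Neutrophil markers (14 of 15, Elane at 0) summed to 0.125 to 6.65 and 0 to 83.9 TPM. Of 18 skeletal muscle markers listed, 12 had a row and 9 were above 0 (Tnnt1, Tnni2 and Pvalb at 0). They summed to 1.80 to 2.59 and 1.15 to 4.65 TPM, with Myh7 and Tnni1 highest by mean (1.35 and 0.907 TPM). Endothelial markers (13 of 13) summed to 0.643 to 1.11 and 0.699 to 1.996 TPM. Their part in the values of the immediate early mRNAs was not tested. Of 5 vesicle markers tested, 1 was higher at an unadjusted p under 0.05, against 6.61% of all tested genes. This was Sdcbp, at 0.0267 ± 0.0309 TPM in sedentary and 0.355 ± 0.177 TPM in exercised libraries (SD, n = 4 each). Its groups did not overlap, as in 4.07% of tested genes. The log2 difference of Sdcbp was 1.80 (SE 0.421, unadjusted p = 0.00171, adjusted p = 0.356 by limma), from 6 and 46 reads.

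The genes most like the summed immediate early mRNAs across the 8 libraries were, among 2135 compared on log2(TPM + 0.1), Fbxo21 (Pearson r 0.945), F13a1 (0.917), Tax1bp1 (0.912), a gene with the identifier ENSRNOG00000031207 and no name (0.910) and Pla2g12b (0.908). F13a1 encodes a subunit of coagulation factor XIII that platelets carry. All 5 were highest in exercised a, the library with the fewest reads, so that the likeness rests in part on 1 library.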

How the data were processed

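Plasma exosome RNA of sedentary and exercised rats was sequenced as stranded total RNA, with 4 libraries per group. A TPM table of 29541 genes by 8 libraries was deposited. The submitters' processing notes name build mRatBN7.2. For the aligner, counter and annotation nothing is given in the sources used here, and the authors had divided reads by gene length to make TPM. RefSeq names and sequences come from GRCr8, where 23830 names were found, so no table coordinates were used.

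The TPM of 1 read per base was set from RefSeq lengths of small RNAs. Each gene was then given the smallest whole length at which its TPM made whole reads in every library. Such reads were found for 71860 of 71860 values (tolerance 1e-06). A larger length can also fit, so the reads are the lowest that do. The 3069 genes that averaged 0.1 TPM or more were fitted by limma 3.58.1 (R 4.3.3) as log2(TPM + 0.1) (eBayes with trend, Benjamini-Hochberg), tested on simulated data. For single mRNAs, exact permutation tests (two-sided) were run in scipy 1.17.1. Rate intervals are exact (Clopper-Pearson, 95%), and a count of 0 was read as up to 3 reads.

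The mRNAs and lists were chosen with earlier results of these data known. Named are all 10 mRNAs, up to 4 genes of highest mean TPM in each other list, list genes with an unadjusted p under 0.05, and the 5 genes most like the sum. Genes picked after their values were seen are marked, and the genes of the marker lists are given mainly as sums. Alternatives were another pseudocount, filter, scaling, voom, a replicate block and leaving out each library.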

Additional observations from a re-analysis of the deposited data

Results flagged for a closer look

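In groups of 4 libraries, a highest or lowest value was taken as standing apart when its gap to the next, divided by the range, was above Dixon's critical value for 4 samples at 95% confidence. Of 18 groups whose values were not all 0 (16 of single mRNAs and 2 of their sum), 3 met this. The rule picks about 5% of groups by chance, a rate that does not hold for counts this low. Fosb in exercised a was at 1.09 TPM, with a gap of 0.928 of the range. Nr4a1 in sedentary b was at 0.0289 TPM, from 1 read, and Nr4a1 in exercised b was at 0.0516 TPM, from 2 reads. In both Nr4a1 groups the other 3 libraries were at 0, where any read makes a library stand apart.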

How the results depend on the processing

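No immediate early mRNA had an exact permutation p under 0.05 under either other scaling or by read rate. With a library left out the smallest possible p was 0.057, so that this test could not pass; Klf2 had it without sedentary b and without exercised c. Same-letter libraries were not positively correlated in their deviations from the group means (-0.158, -0.0509, -0.0850 and -0.116). With 4 libraries per group this cannot decide whether the letters pair the libraries. With the letters as a replicate block limma called 0 genes higher and 0 lower at an adjusted p under 0.05. Voom on the recovered reads called 2 higher and 6 lower. With each library left out in turn, 0 to 1 genes were higher, the 1 without exercised b, and 0 to 0 lower. At an unadjusted p under 0.05, the counts with a library left out were 86 to 179 higher and 45 to 106 lower. With no filter they were 259 and 201, with a filter of 1 TPM 43 and 9, and with voom 97 and 147. The ratio of the summed mRNAs was 1.43 when scaled without the 10 most abundant RNAs, 1.68 by median-ratio scaling and 1.76 by the mean of each library's read rate outside those RNAs, and 1.43 to 2.78 with each library left out. The ratio for Nr4a1 turned to 0 without exercised b, which held both exercised reads; with each library left out it was 0 to 2.38. Without sedentary b it had no sedentary read and no ratio. Under a filter of 1 TPM no immediate early mRNA was fitted. Fosb without exercised a, and Atf3 under median-ratio scaling or without sedentary d or exercised c, fell under 0.1 TPM and were not fitted. Depth limits every value: most of those above 0 rest on a few reads.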
